A study of Danio rerio with 8 samples.

Results

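The 10 genes described here are pigment cell genes of the zebrafish, chosen by name: sox10, mitfa, tyr, tyrp1b, dct, pmela, gch2, pnp4a, ltk and xdh. All 10 were found among the 36109 entries of the deposited table, and all 10 passed the filter on low counts. The rule that chose them uses no measured value, but they were named with earlier results of these data known. RNA of whole wild-type embryos of the AB strain was sequenced. From 1 to 24 hours after fertilization the embryos were exposed to 3 µM E64d, which enters cells and blocks cysteine proteases, or to its solvent dimethyl sulfoxide (DMSO) alone. Both groups comprised 4 replicate pools of 7 embryos. The chorion, the shell around the embryo, was nicked before treatment to let the drug in.

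The labels describe embryos kept in AFW-PTU during E64d treatment, and the same medium is not stated separately for the DMSO wells. PTU is not spelled out in the labels. In zebrafish work the letters commonly stand for phenylthiourea, an inhibitor of tyrosinase that is used to keep embryos clear of melanin. The solvent is stated as 0.5% in both groups. The stated dilution of a 10 mM stock to 3 µM would carry 0.03% DMSO, so a difference in solvent between the groups cannot be told apart from the drug.

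Pigment cells of the fish body come from the neural crest, a migratory embryonic cell population. Melanophores make black melanin, xanthophores make yellow pteridines and store carotenoids, and iridophores reflect light from stacked purine crystals. The retinal pigment epithelium makes melanin too, with the same enzymes, but does not come from the crest. In whole embryos, fewer cells of a type and less RNA per cell cannot be told apart.

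Libraries held 29422983 to 37309883 counts. DMSO replicate 2 had a mitochondrial share of 0.847% of counts, against 1.27% to 1.97% in the other 7 libraries. Of 12 tissue markers of an embryo of this age, which include muscle, notochord, neuron, blood and skin genes, 12 were detected well enough to be tested and 0 were called by edgeR or by DESeq2. At an unadjusted p under 0.05 there were 3, against 20.0% of all genes tested. They were the hatching gland gene he1.1, higher in E64d, and tnnt2a and col2a1a, lower in E64d (log2 fold changes −0.48 and −0.32). With the replicate number as a block 3 passed in edgeR, against 11.6% of all genes tested. They were the erythroid gene gata1a, the neuron gene elavl3 and again he1.1, all higher in E64d (adjusted p = 0.0448, 0.0430 and 0.0449). he1.1 also passed under library totals alone (adjusted p = 0.0343). The most abundant was the skin keratin gene krt4, at 16069.8 to 17075.5 CPM in E64d and 15628.7 to 19601.3 CPM in DMSO. CPM are counts scaled to a common library total after TMM adjustment. No genome sequence was used here, so gene lengths were not known and CPM levels were not adjusted for them. The most abundant gene of a list means the one with the highest mean CPM, and summed levels add such CPM. Neither gives the relative number of transcripts of different genes.

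None of the 10 pigment cell genes was called different between E64d and DMSO. All 22163 genes that passed the filter were tested by edgeR's quasi-likelihood method, and a gene was called where its p, adjusted after Benjamini and Hochberg over all of them, was below 0.05. That rule called 6.13% of all genes tested, 2.28% (506 genes) higher and 3.85% (853 genes) lower in E64d, or 803 higher and 498 lower when libraries were scaled by their totals alone. DESeq2 called 1 of the 10, xdh, against 11.8% of the 18345 genes to which it gave an adjusted p. edgeR with the replicate number as a block called xdh too, against 11.6% of all genes. At an unadjusted p under 0.05 there was also 1 of the 10, again xdh, against 20.0% of all genes. The ranges of E64d and DMSO values overlapped in all 10 genes; they were free of overlap in 0 of the 10, against 14.4% of all genes tested. The median absolute log2 fold change was 0.08 over the 10 genes and 0.19 over all genes tested. A p above the threshold does not show that levels were equal, so each gene is given with the 95% interval of its ratio.

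**Figure D1:**
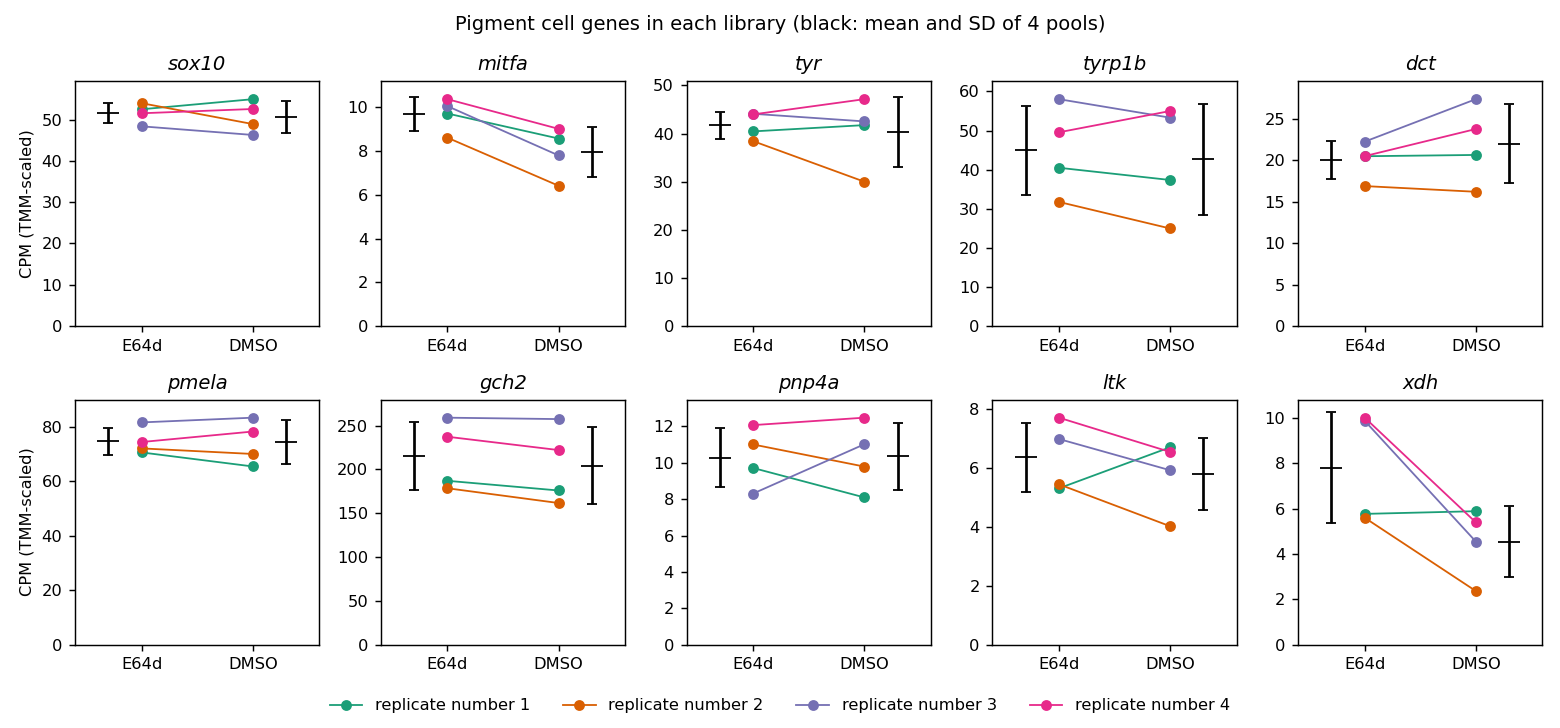
Level of each of the 10 pigment cell genes, in CPM, in the 4 E64d pools (left of each panel) and the 4 DMSO pools (right), with a line joining pools of the same replicate number and the mean with its SD in black. The groups overlap in every panel, and for tyrp1b, from 31.7 to 58.0 CPM in E64d and from 25.0 to 55.0 CPM in DMSO, pools of the same number lie close together.

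The transcription factors come first. sox10, which crest cells need to enter the pigment and glial lineages and which the otic vesicle also transcribes, had 52.5, 54.0, 48.4 and 51.6 CPM in E64d pools 1 to 4, against 55.0, 48.9, 46.3 and 52.6 CPM in DMSO pools 1 to 4. The ranges of the groups lay over each other. The ratio of E64d to DMSO was 1.02, with a 95% interval from 0.905 to 1.15 (log2 fold change 0.03 ± 0.08 SE, adjusted p = 0.902, edgeR). This was the steadiest of the 10 genes, with a spread within groups at the 9.06th percentile of all genes tested.

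mitfa encodes the transcription factor that makes a crest cell a melanoblast, and embryos without it have no body melanophores. It had 9.71, 8.61, 10.1 and 10.4 CPM in E64d, against 8.57, 6.41, 7.80 and 9.01 CPM in DMSO. Each E64d pool stood above the DMSO pool of its own number, by 0.17 to 0.40 on the log2 scale, while the groups overlapped. The ratio was 1.22, with an interval from 0.985 to 1.51 (log2 fold change 0.29 ± 0.14 SE, adjusted p = 0.289, edgeR). Over all alternatives the adjusted p of mitfa ran from 0.175 to 0.518.

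Enzymes and structural proteins of the melanosome, the organelle that makes melanin, are the targets commonly placed under mitfa. tyr encodes tyrosinase, which catalyses the first step from tyrosine to melanin. It had 40.4, 38.4, 44.1 and 44.0 CPM in E64d, against 41.7, 30.0, 42.5 and 47.1 CPM in DMSO. The lowest and the highest value were both in DMSO. Its ratio was 1.03, with an interval from 0.862 to 1.24 (log2 fold change 0.05 ± 0.12 SE, adjusted p = 0.878, edgeR).

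dct encodes dopachrome tautomerase, which acts downstream of tyrosinase and is an early marker of melanoblasts. Its levels were 20.5, 16.9, 22.3 and 20.5 CPM in E64d, against 20.7, 16.2, 27.4 and 23.8 CPM in DMSO. The E64d values lay inside the range of the DMSO values. The ratio was 0.911, with an interval from 0.728 to 1.14 (log2 fold change −0.13 ± 0.15 SE, adjusted p = 0.687, edgeR).

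tyrp1b encodes a tyrosinase-related protein of the same enzyme family. It had 40.5, 31.7, 58.0 and 49.6 CPM in E64d, against 37.4, 25.0, 53.3 and 55.0 CPM in DMSO. In each group pools 3 and 4 were high and pool 2 was lowest. The ratio was 1.05, with an interval from 0.747 to 1.49 (log2 fold change 0.08 ± 0.23 SE, adjusted p = 0.901, edgeR). Its spread within groups was at the 90.7th percentile of all genes tested.

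pmela encodes the protein whose fibrils form the scaffold on which melanin is laid down. It had 70.7, 72.1, 81.7 and 74.5 CPM in E64d, against 65.5, 70.1, 83.4 and 78.4 CPM in DMSO. Pool 3 was the highest in each group. The ratio was 1.01, with an interval from 0.881 to 1.15 (log2 fold change 0.01 ± 0.09 SE, adjusted p = 0.976, edgeR).

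Genes of the yellow and the reflecting cells follow. gch2 encodes a GTP cyclohydrolase that opens pteridine synthesis, and is transcribed in xanthoblasts and in early melanoblasts. It had 187, 178, 259 and 237 CPM in E64d, against 176, 162, 257 and 222 CPM in DMSO. Each E64d pool stood above the DMSO pool of its number by 0.01 to 0.14 on the log2 scale, which is less than the distance between pools 2 and 3 within either group. The ratio was 1.05, with an interval from 0.840 to 1.32 (log2 fold change 0.08 ± 0.15 SE, adjusted p = 0.840, edgeR).

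pnp4a encodes a purine nucleoside phosphorylase, a marker of iridophores, whose crystals are made of purines. It had 9.71, 11.0, 8.31 and 12.1 CPM in E64d, against 8.10, 9.79, 11.0 and 12.5 CPM in DMSO. The groups overlapped over nearly their whole range, and pool 3 was the lowest of the E64d pools. The ratio was 0.992, with an interval from 0.779 to 1.26 (log2 fold change −0.01 ± 0.16 SE, adjusted p = 0.981, edgeR).

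ltk encodes the receptor tyrosine kinase that crest cells need to become iridophores. It had 5.31, 5.45, 6.99 and 7.71 CPM in E64d, against 6.71, 4.02, 5.93 and 6.55 CPM in DMSO. The E64d pool was above the DMSO pool of its number in 3 of 4 pairs. The ratio was 1.098, with an interval from 0.814 to 1.48 (log2 fold change 0.13 ± 0.20 SE, adjusted p = 0.778, edgeR). The genes of its ligands were near the floor, with alkal2a at 0.293 to 1.35 CPM in E64d and 0.583 to 1.07 CPM in DMSO, and alkal1 at 0 to 0.104 CPM in E64d and 0 to 0.122 CPM in DMSO. alkal1 was too low to be tested.

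xdh encodes xanthine dehydrogenase, which oxidizes purines and pteridines. It is a marker of zebrafish xanthoblasts but is not restricted to pigment cells. Its levels were 5.76, 5.59, 9.87 and 10.0 CPM in E64d, against 5.88, 2.36, 4.54 and 5.39 CPM in DMSO. E64d pools 3 and 4 stood above every DMSO pool, E64d pools 1 and 2 lay just under DMSO pool 1, and DMSO pool 2, at 81 counts, was the lowest of the 8. The ratio was 1.72, with an interval from 1.12 to 2.64 (log2 fold change 0.78 ± 0.28 SE, adjusted p = 0.135, edgeR). With the replicate number as a block the same comparison passed (log2 fold change 0.80 ± 0.20 SE, adjusted p = 0.0228, edgeR), as it did with DESeq2 (adjusted p = 0.0444). The difference was positive in 3 of 4 pairs, at 1.09, 1.04 and 0.84 on the log2 scale in pairs 2, 3 and 4, and was −0.03 in pair 1. Without DMSO replicate 2 the log2 fold change was 0.57 ± 0.24 SE (adjusted p = 0.223), and the adjusted p of xdh over all alternatives ran from 0.0228 to 0.353.

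**Figure D2:**
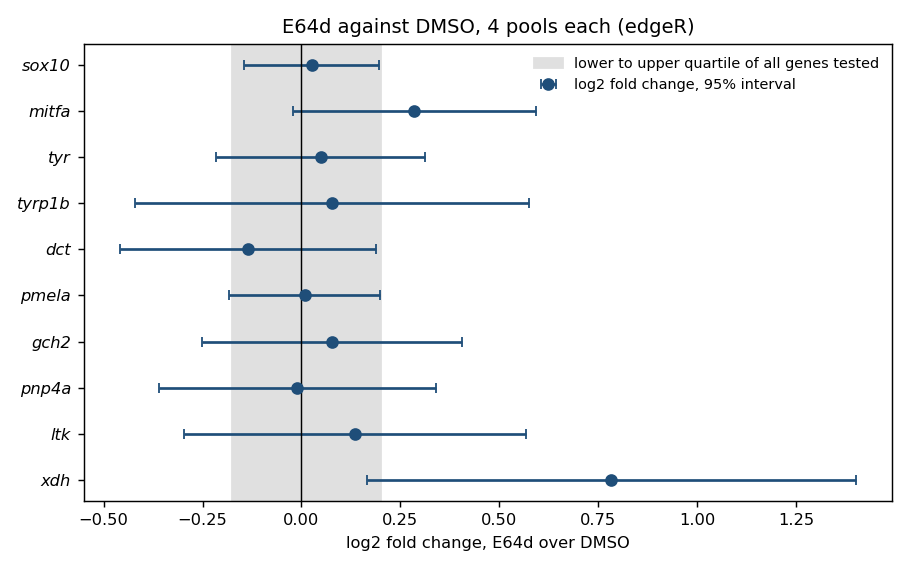
log2 fold change of each pigment cell gene, E64d over DMSO, with its 95% interval from edgeR, above a grey band that spans the lower to the upper quartile of all genes tested (−0.18 to 0.20). The estimates of 8 genes lie inside the band, while mitfa at 0.29 and xdh at 0.78 lie above it, and only the interval of xdh leaves out 0 before adjustment.

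For 7 of the 10 genes, all but mitfa, dct and xdh, the sign of the difference changed when some single library was left out. That of dct stayed negative, at −0.25 without DMSO replicate 2 and −0.01 without DMSO replicate 3. Of the 10 log2 fold changes 8 were above 0, and 3 were above 0 without DMSO replicate 2, those of sox10, mitfa and xdh. That pool stood below the mean of its group in all 10 pigment cell genes, by a median of 0.36 on the log2 scale, while DMSO pool 4 stood above it in all 10. Among the E64d pools, 3, 2, 8 and 8 of the 10 genes were above the mean of the group in pools 1, 2, 3 and 4. DMSO pools 1 and 3 had 5 and 8 genes above the mean. Over all genes tested, the median deviation from the group mean was 0.0003 in DMSO pool 2. In every library it lay between −0.0007 (E64d pool 4) and 0.0071 (DMSO pool 4). Scaling and centring keep this median near 0, so it does not tell whether the low values of DMSO pool 2 were particular to pigment cell genes. Among the tissue markers, elavl3 was at 213 CPM in DMSO pool 2 and at 307 to 369 CPM in the other DMSO pools. In the other direction, col2a1a was at 3183 CPM there, against 1816 to 2356 CPM.

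The levels of several pigment cell genes went with the replicate number in both groups. What a number marks is not given in the labels. With treatment in the model, 2 of the 10 genes differed between the 4 numbers at an adjusted p under 0.05 over all 22163 genes, against 2.36% of all genes tested. This comparison was chosen after the values were seen. tyrp1b differed 1.96-fold between the lowest and the highest number mean (adjusted p = 0.00261, edgeR), and gch2 1.52-fold (adjusted p = 0.00462). Number 2 was the lowest and number 3 the highest for both genes. At an unadjusted p under 0.05 there were 5 of the 10 genes, against 15.1% of all genes tested, the other 3 being dct, tyr and xdh.

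Of the 12 tissue markers 2 differed between numbers, against 2.36% of all genes tested. These were the globin genes hbae3 and hbbe1.1 (adjusted p = 7.15e-05 and 4.88e-05 by edgeR). The erythroid gene gata1a did not pass (adjusted p = 0.117). hbae3 and hbbe1.1 were lowest in pool 1 of each group, at 162 and 76.7 CPM in E64d and 165 and 82.3 CPM in DMSO. Their part in the levels of pigment cell genes was not tested.

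The remaining pigment cell genes did not pass in the comparison of numbers. dct spanned 1.48-fold (adjusted p = 0.147, edgeR) and ltk 1.47-fold (adjusted p = 0.477), with number 2 lowest for both. sox10 spanned 1.13-fold (adjusted p = 0.669), against a median of 1.27-fold over all genes tested. The range over the 4 numbers exceeded the absolute log2 fold change between the groups in 10 of 10 genes, and in 72.1% of all genes tested; a range over 4 values tends to exceed a difference of 2 means. The call of gch2 was lost without E64d replicate 3 (adjusted p = 0.0560) or DMSO replicate 3 (adjusted p = 0.0866), and tyrp1b passed without any single library (adjusted p up to 0.0310). Both tyr and dct also passed without E64d replicate 2 (adjusted p = 0.0102 and 0.0275). With the number as a block, the SE of the log2 fold change between E64d and DMSO was 0.09 for tyrp1b and 0.06 for gch2, in place of 0.23 and 0.15.

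**Figure D3:**
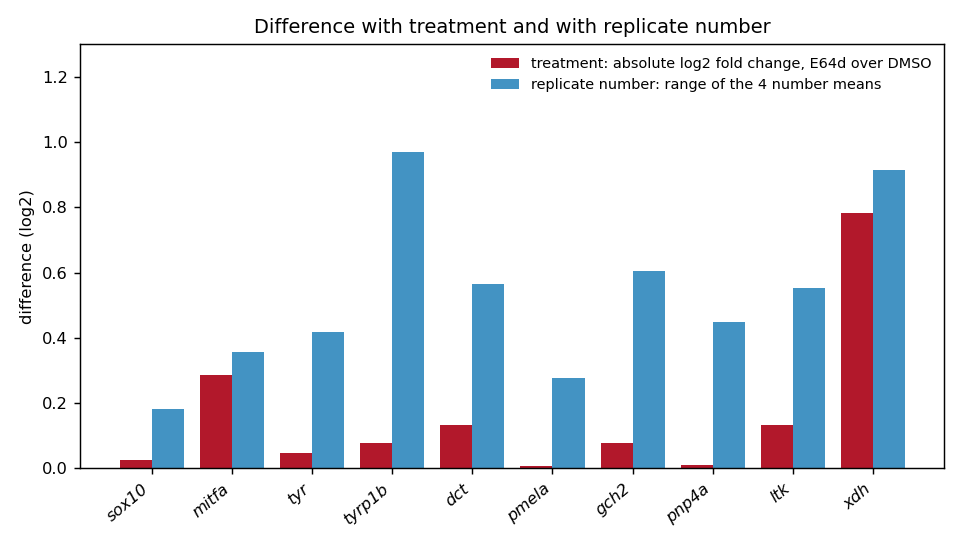
For each pigment cell gene, the absolute log2 fold change between E64d and DMSO (red) and the range of the 4 replicate number means (blue), both in log2 units. The blue bar is the taller one for all 10 genes, by the most for tyrp1b, where the range is 0.97 and the treatment difference 0.08.

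The 5 genes whose profile over the 8 libraries was most like the mean profile of mitfa, tyr, tyrp1b, dct and pmela were slc24a5, slc6a5, slc2a11b, ndrg4 and iqsec1b. Likeness was the root mean square difference of log2 values centred on their mean, among 18852 genes at a mean of at least 1 CPM. The differences ran from 0.06 for slc24a5, which encodes a cation exchanger needed for melanin formation, to 0.07 for iqsec1b. slc24a5 had 16.0, 15.8, 20.3 and 18.7 CPM in E64d, against 17.5, 12.4, 18.8 and 19.0 CPM in DMSO. slc2a11b, a sugar transporter gene of xanthophores, had 39.5, 34.8, 43.5 and 46.0 CPM in E64d, against 37.0, 32.0, 46.7 and 44.3 CPM in DMSO. The other 3, slc6a5 (difference 0.06), ndrg4 and iqsec1b, are in none of the pigment lists used here. In all 5 genes pool 2 was the lowest of its group, as in the profile they were matched to. Ranked among the same candidates, the genes of the mean would stand at 8 (tyr), 163 (dct), 582 (pmela), 744 (mitfa) and 3492 (tyrp1b). Outside the mean, gch2 would stand at 170, ltk at 697, sox10 at 5117, pnp4a at 7478 and xdh at 16472. The measure also counts the size of the swings between libraries. A flat profile would differ by 0.196 from the mean profile, less than tyrp1b at 0.205. The ranks therefore do not tell how many genes share the shape of the profile.

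Other genes of the pigment lineages gave few calls as well. Of 18 tested genes in a list of further melanophore and melanin genes, 0 rose and 0 fell (median log2 fold change 0.05), against 6.13% of all genes called and a median of 0.01. DESeq2 called 1, slc7a11, against 11.8% of the genes it tested, and limma-voom 0. At an unadjusted p under 0.05 there were 2, kita and slc7a11, against 20.0% of all genes tested. Both were named after their values were seen. kita, the receptor gene on which melanoblast migration and survival depend, had 27.1, 27.9, 28.4 and 30.6 CPM in E64d, against 21.9, 23.0, 25.8 and 24.8 CPM in DMSO. Its groups did not overlap and its ratio was 1.19, with an interval from 1.05 to 1.36 (adjusted p = 0.115, edgeR, and 0.0479 under library totals alone). slc7a11, a cystine transporter gene, passed with the replicate block (log2 fold change 0.61, adjusted p = 0.0394) and DESeq2 (adjusted p = 0.0487). The most abundant gene of the list, the copper transporter gene atp7a, was at 45.0 to 61.4 CPM in E64d and 48.2 to 57.5 CPM in DMSO (adjusted p = 0.927). mlana, at up to 0.259 CPM, was too low to be tested.

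Of 18 further xanthophore and pteridine genes 0 rose and 1 fell (median 0.05), against 6.13% of all genes called. The gene that fell was scarb1, a lipoprotein receptor gene that xanthophores use for carotenoids and that other tissues transcribe. It had 16.0, 17.8, 13.1 and 14.9 CPM in E64d, against 25.7, 37.7, 20.7 and 28.2 CPM in DMSO. All E64d pools were below all DMSO pools, with a ratio of 0.550 and an interval from 0.430 to 0.704 (log2 fold change −0.86 ± 0.16 SE, adjusted p = 0.0079, edgeR). With the replicate block pax7b, a xanthophore transcription factor gene, also rose (log2 fold change 0.35, adjusted p = 0.0329), and qdprb1, a gene of pterin recycling, also fell (log2 fold change −0.50, adjusted p = 0.0439). Neither passed in edgeR without the block (adjusted p = 0.114 and 0.0596). The block thus called 3 of the 18, against 11.6% of all genes. At an unadjusted p under 0.05 there were 4 of the 18 in edgeR, against 20.0% of all genes tested. The groups were free of overlap in 2 genes that were higher and 2 that were lower in E64d, against 14.4% of all genes. DESeq2 called 2, scarb1 and qdprb1 (adjusted p = 1.79e-05 and 0.0192), against 11.8% of the genes it tested, and gave pax7b an adjusted p of 0.0542. Of the same 18 genes, qdpra and sprb, another pair of pterin enzymes, differed with the replicate number (adjusted p = 0.00647 and 0.0129), against 2.36% of all genes.

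Of 16 further iridophore genes 12 could be tested, and 0 rose and 0 fell (median 0.23), against 6.13% of all genes called. At an unadjusted p under 0.05 there were 3 (tfec, ednrba and tjp1a), against 20.0% of all genes tested. DESeq2 called 1, ednrba (adjusted p = 0.0279), against 11.8% of the genes it tested. Under library totals alone ednrba passed too (adjusted p = 0.0496). ednrba, an endothelin receptor gene of iridophores named after its values were seen, had 4.50, 6.32, 6.10 and 6.56 CPM in E64d, against 3.92, 3.56, 4.61 and 3.17 CPM in DMSO. The groups overlapped by 1 pool on each side, with a ratio of 1.54 and an interval from 1.16 to 2.05 (adjusted p = 0.0759, edgeR). tfec, a transcription factor gene of iridophores and of the retinal pigment epithelium, had 13.1 to 14.6 CPM in E64d and 8.69 to 12.6 CPM in DMSO, without overlap (adjusted p = 0.122). The most abundant gene, the junction protein gene tjp1a, had 167 to 186 CPM in E64d and 119 to 169 CPM in DMSO (adjusted p = 0.189).

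Upstream of the pigment lineages, 1 of 18 neural crest genes rose and 0 fell (median 0.07), against 6.13% of all genes called. crestin, a marker of migrating crest cells, had 21.2, 39.7, 30.0 and 32.6 CPM in E64d, against 15.2, 19.2, 13.4 and 16.2 CPM in DMSO. All E64d pools lay above all DMSO pools, at a ratio of 1.93 with an interval from 1.49 to 2.49 (log2 fold change 0.95 ± 0.17 SE, adjusted p = 0.00537, edgeR). crestin belongs to a repeated element with several copies in the genome, so its reads may have been split or dropped. Its call held in all 15 alternatives. The snail-family gene snai2 passed with the replicate block (log2 fold change 0.29, adjusted p = 0.0343), with DESeq2 (adjusted p = 0.0462) and under library totals alone (adjusted p = 0.0485), and not in edgeR's fit without these changes (adjusted p = 0.0872). The block and DESeq2 each called 2 of the 18, against 11.6% of all genes and 11.8% of the genes DESeq2 tested. At an unadjusted p under 0.05 there were 4 of the 18 (crestin, snai2, pax3a and prdm1a), against 20.0% of all genes tested. The groups were free of overlap in 5 of the 18, all higher in E64d. Of all 22163 genes tested, 1298 were free of overlap and higher in E64d, and 14.4% were free of overlap in either direction. foxd3, an early crest factor gene, was at 27.6 to 39.5 CPM in E64d and 27.4 to 36.7 CPM in DMSO (adjusted p = 0.822, edgeR). The summed level of the list was 928 to 982 CPM in E64d and 850 to 903 CPM in DMSO. It includes tfap2c, at means of 156 CPM in E64d and 145 CPM in DMSO, and tfap2a, at 106 and 100 CPM. Neither of these was called. Transcription of the listed genes outside the crest cannot be told apart in whole embryos.

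Crest derivatives other than pigment cells, and the otic vesicle, were looked at because sox10 is transcribed there too. Of 10 tested genes listed for crest neurons and glia 0 rose and 0 fell (median 0.25), against 6.13% of all genes called. In whole embryos, transcription of these genes outside the crest cannot be told apart. At an unadjusted p under 0.05 there were 4 (neurog1, isl1, mpz and ascl1a), against 20.0% of all genes tested. The groups were free of overlap in 3 of the 10, all higher in E64d. Of all 22163 genes tested, 1298 were so. DESeq2 called 1, the neural factor gene ascl1a (adjusted p = 0.0402, and 0.0391 under library totals alone), against 11.8% of the genes it tested. The replicate block called 11.6% of all genes. With the replicate block the glial genes fabp7a and mpz rose (log2 fold changes 0.58 and 0.51, adjusted p = 0.00695 and 0.0305). The most abundant, fabp7a, had 20.8, 42.0, 41.7 and 54.5 CPM in E64d, against 13.9, 35.9, 30.7 and 25.4 CPM in DMSO, and it also differed with the replicate number (adjusted p = 0.00613). Of 8 otic vesicle genes 0 rose and 0 fell (median 0.09), against 6.13% of all genes called. Both pax2a and cdh6 had an unadjusted p under 0.05, 2 of the 8 against 20.0% of all genes. DESeq2 called these 2 as well, against 11.8% of the genes it tested. With the block pax2a rose (log2 fold change 0.39, adjusted p = 0.0358) and cdh6, the most abundant, fell (log2 fold change −0.22, adjusted p = 0.0380). The myelin gene mbpa was at 0 in every library. The summed level of the neuron and glia list was 175 to 206 CPM in E64d and 151 to 170 CPM in DMSO, and its part in the level of sox10 was not tested.

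The retinal pigment epithelium shares tyr, tyrp1b, dct and pmela with melanophores. Of 15 tested genes of that list 0 rose and 2 fell (median 0.07). This is 13.3% of the list called, against 6.13% of all genes tested. An unadjusted p under 0.05 was found for 4 of the 15, against 20.0% of all genes tested. The summed level was 173 to 201 CPM in E64d and 180 to 216 CPM in DMSO. Both genes that fell encode RGR opsins, light-sensitive proteins known from the pigment epithelium and Müller glia of mammals. rgrb had 4.95, 6.68, 5.61 and 7.19 CPM in E64d, against 16.4, 15.0, 12.8 and 14.3 CPM in DMSO. The groups were far apart, with a ratio of 0.417 and an interval from 0.335 to 0.519 (log2 fold change −1.26 ± 0.15 SE, adjusted p = 0.000175, edgeR). rgra had 4.27, 3.78, 6.00 and 5.74 CPM in E64d, against 10.8, 7.00, 8.97 and 8.71 CPM in DMSO (log2 fold change −0.84 ± 0.19 SE, adjusted p = 0.0222). The call of rgra was lost without E64d replicates 1 or 2 or DMSO replicates 1 or 3 (adjusted p up to 0.0646). The listed genes rpe65a, rlbp1a, rlbp1b and best1 were at most at 3.07, 1.36, 0.519 and 0.453 CPM in E64d. In DMSO they were at most at 3.03, 1.89, 0.380 and 0.645 CPM. The part of this tissue in the levels of the melanin genes was not tested.

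Melanosomes are made with the sorting machinery that also serves lysosomes. Of 24 tested genes of that machinery 2 rose and 0 fell (median 0.05). This is 8.33% of the list called, against 6.13% of all genes tested. ap3b1a, a large subunit gene of the AP-3 adaptor, had 77.0, 68.9, 71.8 and 67.9 CPM in E64d, against 56.6, 44.2, 44.3 and 43.4 CPM in DMSO. The groups did not overlap, with a ratio of 1.52 and an interval from 1.31 to 1.75 (log2 fold change 0.60 ± 0.09 SE, adjusted p = 0.0022, edgeR). ap3d1, the other large subunit gene, had 98.9, 98.6, 92.8 and 92.0 CPM in E64d, against 82.9, 75.5, 76.4 and 78.6 CPM in DMSO (log2 fold change 0.29 ± 0.07 SE, adjusted p = 0.0244). The call of ap3d1 was lost without any one of the 4 E64d libraries or without DMSO replicates 3 or 4 (adjusted p up to 0.0791). The small and medium subunit genes ap3s1 and ap3m1, named after their values were seen, had log2 fold changes of −0.27 ± 0.15 SE and −0.15 ± 0.09 SE (adjusted p = 0.343 and 0.359). bloc1s2 passed with the replicate block (log2 fold change −0.48, adjusted p = 0.0325) and with DESeq2 (adjusted p = 0.0165). The block and DESeq2 each called 3 genes of the list, against 11.6% of all genes and 11.8% of the genes DESeq2 tested. An unadjusted p under 0.05 was found in edgeR for 3 of the 24, against 20.0% of all genes tested.

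**Figure D4:**
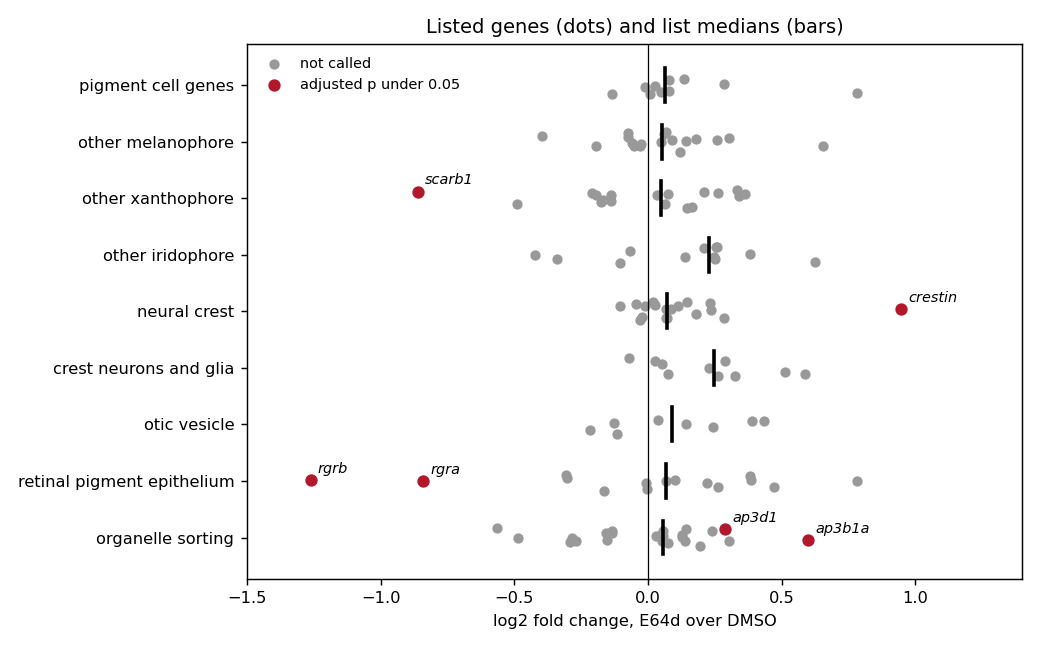
log2 fold change, E64d over DMSO, of each tested gene (dots) in the pigment cell genes and in 8 related lists, with list medians as black bars and genes at an adjusted p under 0.05 in red. The medians lie between 0.05 and 0.25, and the 6 called genes are scarb1, crestin, rgra, rgrb, ap3b1a and ap3d1.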

How the data were processed

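Per the labels' protocols, TRIzol was used for RNA extraction and the VAHTS Universal V8 kit for library construction. The values are raw read counts, which the authors deposited as one table of genes by libraries. The submitters' processing notes list featureCounts 2.0.6, STAR 2.7.10b, Trim Galore 0.6.10 and FastQC 0.12.1, and the genome build GRCz11. For the annotation, the strand setting and multi-mapping reads, the entry is: not given in the sources used here. Reads of overlapping genes may therefore be mixed. The labels name the column of each sample; another 6 columns carry no name and were left aside.

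Genes were kept by filterByExpr, scaled by TMM and tested with edgeR 4.0.16 (R 4.3.3), quasi-likelihood, Benjamini-Hochberg over 22163 genes, called at an adjusted p under 0.05. SEs came from the test statistic, and 95% intervals were not adjusted for multiple tests. p-values weigh a difference against the spread between pools. In the fit without the block, that spread includes differences between replicate numbers. Likeness used log2(CPM + 0.5). DESeq2 1.42.0 and limma-voom 3.58.1 were alternatives, as were other scalings, no filter, counts divided by 2, a replicate block and leaving out each library. The test was checked on simulated data with 4 pools against 4. It recovered 44% of changes of 1.5-fold, 70% of 2-fold and 94% of 4-fold, and 6.67% of its calls were false. Changes of 1.5-fold were thus more often missed than found.

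The members, the 9 lists (148 entries, of which 142 matched by name, 1 by a RefSeq synonym from the assembly GRCz12tu, 1 was a second name and 4 had no match) and the rule for named genes were chosen with earlier results of these data known. tfec is in 2 lists. That rule took the 10 genes, up to 2 called genes in each direction per list or else the most abundant, and 5 genes of similar profile. The comparison of replicate numbers was chosen after seeing the data. Replicate numbers come from the sample titles, which do not say what they mark. Deviations from group means correlated at 0.122 to 0.413 across genes between same-numbered libraries and at −0.239 to 0.089 between others. Each of the pairs exceeded 0.1, so the numbers pair the libraries. The comparison was still made without the block, as laid down, and values with the block are given where they change a call. The best partner of each of the 8 libraries was the one that shared its number.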

Additional observations from a re-analysis of the deposited data

How the results depend on the processing

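Of 150 values (10 genes, 15 alternatives), 133 kept their direction and their side of the threshold, 15 changed sign without passing the test, and 2 newly passed, both for xdh. With 4 pools a group, small differences could not be resolved for the more variable genes. Genes called numbered 1359 by edgeR, 2162 by DESeq2 and 2580 with the replicate block, and 655 to 1396 without single libraries, where E64d replicates 1, 2, 3 and 4 left 834, 845, 854 and 655 when omitted and DMSO replicate 3 left 835. Those higher in E64d numbered 506, and 803 under library totals alone, 834 by DESeq2 and 1040 with the block (288 to 560 without single libraries). Those lower numbered 853, and 498, 1328 and 1540 in the same order (367 to 836 without single libraries). The number of pigment cell genes called was 0, and 1 by DESeq2 or with the replicate block, which changed no other call among the 10. Over the omissions of single libraries the log2 fold change ran from −0.016 to 0.072 for sox10, −0.066 to 0.132 for tyr, −0.106 to 0.223 for tyrp1b, −0.252 to −0.0123 for dct, −0.042 to 0.068 for pmela, −0.024 to 0.208 for gch2, −0.106 to 0.091 for pnp4a and −0.0023 to 0.218 for ltk. That of pnp4a was 0.074 under library totals alone. Genes that differed with the replicate number were 522, and 2077 with no filter, of which 4 pigment cell genes in place of 2; without single libraries they were 224 (DMSO replicate 3) to 3137 (E64d replicate 2), with 1 to 4 pigment cell genes, and they were 1232 and 343 without DMSO replicates 2 and 4 and 229 without E64d replicate 3. The cause of these shifts was not tested.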
